A study of Homo sapiens with 30 samples.

Results

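The RNAs described here are the antisense long noncoding RNAs expressed in SH-EP cells and in SH-EP cells carrying a MYCN transgene. They were taken as the rows of the RNA-Seq table whose symbol ends in -AS1, -AS2, or -AS3 and whose deposited value, in FPKM (fragments mapped to a gene, corrected for its length and for the size of the library), averaged at least 1 over all 30 libraries. Of 26228 genes in the table, 971 carried such a symbol and 165 reached the minimum, of which 153 ended in -AS1, 11 in -AS2, and 1 in -AS3. The other 806 averaged less than 1 FPKM, and 311 of the 971 were listed at 0 in every library. They were thus selected on their mean level in these libraries, and their presence in the cells is not a result, and 66 of the 165 had a group mean below 1 FPKM in at least 1 of the 10 groups.

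SH-EP is an established human neuroblastoma (NB) cell line without MYCN amplification. Its 4 derivatives carry a stable retroviral MYCN transgene under an exogenous promoter, encoding WT MYCN or the mutants T58A, S62A, or T58A S62A, which alter phosphorylation sites of the protein, and whether a derivative is a single clone is not given in the sources used here. All 5 lines were kept in serum-supplemented DMEM and were treated for 6 hours with the vehicle DMSO or with 1 µM CYC065, an inhibitor of the kinases CDK9 and CDK2. Each line and treatment has 3 libraries, and since no source says that these came from separate cultures, p-values measure the spread between libraries, which may be technical.

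Antisense long noncoding RNAs are transcribed from the strand opposite a protein-coding gene, after which they are named, and many start within the same promoter region and run away from it. RNA polymerase II leaves such promoters in both directions, CDK9 releases it into elongation, and the nuclear exosome removes much of the short upstream RNA, while spliced and polyadenylated antisense RNAs persist. A few have known roles, such as OIP5-AS1, an abundant cytoplasmic RNA that binds a microRNA. MYCN binds DNA with its partner MAX at E-boxes, of which CACGTG is the canonical form.

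The libraries fitted their labels at the transgene, with MYCN listed at 0 FPKM in all SH-EP libraries and between 5.08 and 20.1 FPKM in the libraries of the MYCN lines. The mesenchymal genes PRRX1, SNAI2, FN1, VIM, CD44, and YAP1 were above 0 in every library, whereas the adrenergic gene PHOX2A was at 0 in all 30 and DBH and HAND1 in 29 each. TH and GATA2 are also on the adrenergic list. TH was at 0 in 5 libraries and reached at most 0.969 FPKM (mean 0.250), and GATA2 was at 5.26 to 22.4 FPKM. Read totals are unknown, but the steps of low values gave relative depths of 0.467 to 1.00 for DMSO and 0.291 to 0.551 for CYC065 libraries, so the treated libraries were the shallower ones. Pearson's r between libraries of a group, across tested genes, was 0.925 to 0.959. SH-EP libraries reuse index sequences of MYCN-line libraries, so they may have been pooled or sequenced apart from these, which no label says. Such a batch and line cannot be told apart in any comparison with SH-EP. In these bulk samples, fewer cells of a type and less RNA per cell cannot be told apart either.

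Antisense values depend on reads being assigned to the right strand. VIM-AS1 averaged 2.91 FPKM opposite VIM at 2235 FPKM, and MIF-AS1 averaged 1.24 FPKM opposite MIF at 1220 FPKM, with exons that overlap in both pairs. Relative to their own level, little signal of these abundant genes was thus counted on the other strand. How much of a low antisense value may come from its sense gene was not tested. The paper names a directional library kit, and strand was taken as kept. Exons shared on the same strand are a separate matter. Of the 165 RNAs, 14 share exon bases with another listed gene of their own strand and 9 of these with a gene of at least 1 FPKM, among them AGAP2-AS1 with OS9 (1378 bases), THAP9-AS1 with SEC31A (482), ADAMTSL4-AS1 with MCL1 (328), OIP5-AS1 with NUSAP1 (195), and EPB41L4A-AS1 with the small nucleolar RNA SNORA13 (133). Values of these RNAs may hold reads of the other gene.

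Most of the RNAs started beside their sense gene. A position in GRCh37 was found for 158 (122 by symbol and 36 by a RefSeq synonym), and 153 of these could be set against a sense gene on the opposite strand. In 105, a start lay within 1000 bases of a start of the sense gene, at a median distance of 81 bases, and in 46 the 2 genes overlapped with starts further apart. Distances given below for a pair are likewise between the closest annotated transcript starts, which need not be the gene starts. That of ZBED5-AS1, given with its sequence, is from its gene start. Exons of 100 overlapped sense exons. The annotation calls 153 of them long noncoding RNAs and 3 protein coding, including NCBP2-AS2 and MMP24-AS1.

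The sequences around 4 of these starts are shown as a description of RNAs named below, and no expression result rests on them. Each is 300 bases of GRCh37, from 250 bases before the annotated start of the antisense RNA to 50 after it, written 5′ to 3′ on the strand of that RNA. In MAFG-AS1, which fell most against its sense gene under CYC065, capitals mark CACGTG, and a link between the 2 was not tested. LRRC75A-AS1, OIP5-AS1, and CAPN10-AS1, also named below, hold CACGTG in their windows too and are not shown. FOXP4-AS1 and USP2-AS1 had the largest mean rises of the RNAs that rose in all 4 MYCN lines, and their windows hold no CACGTG. In ZBED5-AS1, which had the largest gain over its sense gene under CYC065, capitals mark the 3 bases at which annotated ZBED5 transcripts start on the other strand.
MAFG-AS1 (chr17:79885455-79885754, plus strand): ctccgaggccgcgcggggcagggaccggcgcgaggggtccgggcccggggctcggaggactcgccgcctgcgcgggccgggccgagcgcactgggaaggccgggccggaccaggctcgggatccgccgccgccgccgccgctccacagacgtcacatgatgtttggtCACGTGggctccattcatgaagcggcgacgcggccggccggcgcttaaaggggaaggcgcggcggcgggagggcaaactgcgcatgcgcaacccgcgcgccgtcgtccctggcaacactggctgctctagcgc
FOXP4-AS1 (chr6:41516310-41516609, minus strand): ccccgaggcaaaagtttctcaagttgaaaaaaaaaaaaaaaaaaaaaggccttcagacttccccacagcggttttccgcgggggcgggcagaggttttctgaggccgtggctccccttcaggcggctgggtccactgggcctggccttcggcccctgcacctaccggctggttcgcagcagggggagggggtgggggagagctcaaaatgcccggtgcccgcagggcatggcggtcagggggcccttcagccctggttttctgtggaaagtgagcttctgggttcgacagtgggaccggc
USP2-AS1 (chr11:119226927-119227226, plus strand): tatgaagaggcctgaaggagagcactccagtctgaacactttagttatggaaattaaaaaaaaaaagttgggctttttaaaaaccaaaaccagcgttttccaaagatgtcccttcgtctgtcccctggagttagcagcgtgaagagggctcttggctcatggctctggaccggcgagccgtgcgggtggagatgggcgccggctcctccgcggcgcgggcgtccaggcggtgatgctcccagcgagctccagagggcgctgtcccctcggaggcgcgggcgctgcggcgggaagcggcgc
ZBED5-AS1 (chr11:10879476-10879775, plus strand): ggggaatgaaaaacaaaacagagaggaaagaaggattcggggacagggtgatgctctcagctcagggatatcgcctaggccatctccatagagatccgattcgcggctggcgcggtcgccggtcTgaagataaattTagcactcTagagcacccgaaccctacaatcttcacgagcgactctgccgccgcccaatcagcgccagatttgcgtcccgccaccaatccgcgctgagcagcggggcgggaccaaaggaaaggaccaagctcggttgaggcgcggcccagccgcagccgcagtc

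CACGTG, which reads the same on both strands, was present in the windows of 13 of the 158 positioned RNAs (8.23%) and of 1089 of 11205 tested genes (9.72%). It was in 1 of 13 windows of RNAs higher and 0 of 4 of RNAs lower in all 4 MYCN lines, and in 6 of 43 and 1 of 25 windows of those higher and lower in the mean of the lines. A match of letters is a description and not a binding site. Windows of the antisense RNAs had a median GC content of 64.3%, against 62.7% for all tested genes, and both had a median of 23 CpG.

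Levels of the 165 antisense RNAs were low beside those of the sense genes that reached the same minimum. The median of their means was 2.68 FPKM, against 14.5 FPKM for the sense genes that were also tested, and 56 lay under 2 FPKM while 19 reached 10. LRRC75A-AS1, which the annotation names SNHG29, a host of small nucleolar RNAs, was far above all others with a mean of 552 FPKM and library values from 352 to 854 FPKM. FGD5-AS1 averaged 42.1 FPKM, NCBP2-AS2 35.7, OIP5-AS1 31.8, and TBX2-AS1 18.4. HAND2-AS1 (15.4 FPKM), SERTAD4-AS1 (14.5), ZNF667-AS1 (13.2), IQCH-AS1 (13.0), and HNRNPU-AS1 (12.8) followed, and neighbours in this order overlapped in their library values. Only 13 of the 124 RNAs with a tested sense gene averaged more than it. A sense gene was listed for 161 RNAs, and the listed sense genes that were not tested averaged under 1 FPKM. Each of those lay below its antisense RNA by the choice of RNAs. At the other end, STARD7-AS1 (1.03 FPKM), HIF1A-AS2 (1.02), and GAS6-AS1 (1.00) lay just inside the minimum, and SH3BP5-AS1 (0.993), CCNT2-AS1 (0.989), and PPP3CB-AS1 (0.976) just outside it.

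The first question was how the antisense RNAs of the MYCN lines differed from those of SH-EP. In DMSO, 13 of the 165 were higher than in SH-EP in each of the 4 MYCN lines and 4 were lower in each, on FPKM as deposited and with limma at a Benjamini-Hochberg adjusted p under 0.05. Of all 11575 genes tested, 19.2% were higher and 13.4% lower by the same rule, which are larger shares than those of the antisense RNAs. In the mean of the 4 lines 46 were higher and 25 lower, against 34.6% and 26.3% of all genes. At 1 to 5 FPKM, where calls are rarer, 5 of 124 antisense RNAs and 297 of 3410 genes were higher in every line, and 2 and 396 were lower. Of the 13 and the 4, 10 and 3 had a mean of at least 1 FPKM in every group. FOXP4-AS1 and USP2-AS1 were under it in SH-EP and reached the minimum through the MYCN lines, so that they differed follows in part from the choice of RNAs. All 4 comparisons share the 3 SH-EP libraries, and no comparison with another set of control libraries was possible. On spike-in scaled values, which shift the median of all genes from 0.06 to -1.17 on the log2 scale, 2 were higher and 60 lower in every line, so the directions given here are relative to the rest of the RNA and not per cell.

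FOXP4-AS1, which starts 126 bases from a start of the forkhead transcription factor gene FOXP4, was listed at 0, 0, and 0.494 FPKM in the SH-EP libraries. The WT line had 1.35, 1.81, and 4.50 FPKM and T58A 2.13, 4.12, and 8.05 FPKM. It was at 0.648, 1.53, and 2.54 FPKM in S62A, and at 2.18, 4.09, and 9.05 FPKM in T58A S62A. Every MYCN-line library was above every SH-EP library, and the libraries of a line differed severalfold. The mean change over the 4 lines was 3.97 ± 0.52 on the log2(FPKM + 0.1) scale (SE, limma with Benjamini-Hochberg adjusted p = 4.64e-07), a scale that understates changes of low values. FOXP4 itself was at 2.04, 2.07, and 2.28 FPKM in SH-EP and at 4.14 to 6.45 FPKM in the MYCN lines, a log2 change of 1.29 ± 0.09 (adjusted p = 9.89e-12, limma).

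USP2-AS1, which faces the deubiquitinase gene USP2, was at 0.0845, 0.111, and 0.343 FPKM in SH-EP. The WT line had 1.85, 2.42, and 2.63 FPKM, T58A 3.26, 4.71, and 5.16, S62A 0.860, 1.46, and 2.03, and T58A S62A 4.004, 4.97, and 5.52. The groups did not overlap with SH-EP, and the lines with T58A lay above the WT and S62A lines. The mean log2 change was 3.51 ± 0.27 (SE; limma adjusted p = 7.96e-11). USP2 averaged under 1 FPKM and was not tested, with values up to 0.0389 FPKM in SH-EP and up to 0.779 FPKM in T58A.

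ELFN1-AS1, which lies within the gene of the synaptic adhesion protein ELFN1, was at 3.30, 3.58, and 3.64 FPKM in SH-EP, between 13.6 and 24.7 FPKM in the WT, T58A, and T58A S62A lines, and between 6.78 and 8.85 FPKM in S62A. Its log2 change was 1.91 ± 0.20 (SE; limma adjusted p = 1.80e-08), and S62A was its lowest MYCN line. RPARP-AS1, whose sense gene is not listed, was at 2.14, 2.29, and 3.27 FPKM in SH-EP and at 3.36 to 8.29 FPKM in the MYCN lines, a log2 change of 1.22 ± 0.13 that was 0.0066 with spike-in scaling.

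TMEM147-AS1 and TTC28-AS1 rose without their sense genes. TMEM147-AS1 was at 1.83, 1.92, and 2.15 FPKM in SH-EP and at 2.71 to 6.40 FPKM in the MYCN lines, a log2 change of 0.94 ± 0.17 (SE; limma adjusted p = 2.96e-05), while TMEM147, an endoplasmic reticulum membrane protein gene 37 bases away, was at 77.4 to 77.9 and at 58.7 to 91.2 FPKM with an adjusted p of 0.994. TTC28-AS1 rose by 0.87 ± 0.17 (adjusted p = 8.72e-05) from 4.20, 4.66, and 5.16 FPKM, and TTC28 fell by 0.46 on the log2 scale (SE 0.13, adjusted p = 0.00341). SLFNL1-AS1 stayed low, at 0.213 to 0.321 FPKM in SH-EP and 0.398 to 0.771 FPKM in the MYCN lines (0.86 ± 0.18), and SLFNL1 was at or near 0. SLFNL1-AS1 averaged 1.09 FPKM over all libraries and reached the minimum only through the CYC065 libraries, so this DMSO comparison lies wholly below it.

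Also higher in every MYCN line were EPB41L4A-AS1 (0.57 ± 0.10), MAPKAPK5-AS1 (0.69 ± 0.09), ZNF667-AS1 (0.71 ± 0.13), GATA2-AS1 (0.67 ± 0.11), and GABPB1-AS1 (0.74 ± 0.14), where the values are log2 changes with SE and the last pair was named after its values were seen. Of the sense genes of the 13, 8 were tested. Of these sense genes 4 were higher in every line as well, among them FOXP4, MAPKAPK5 (a protein kinase), and ZNF667 (a zinc finger protein), and none of the 8 was lower in every line. SNORA13, which lies in the exons of EPB41L4A-AS1, was itself higher in the MYCN lines by 2.59 on the log2 scale, and its part in the EPB41L4A-AS1 value was not tested.

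Of the 4 RNAs that were lower in every MYCN line, PAX8-AS1 moved the most. It was at 3.21, 3.22, and 3.27 FPKM in SH-EP, and at 1.20 to 1.53 FPKM in the WT line. The T58A libraries were at 0.741, 1.46, and 1.70 FPKM, those of S62A at 0.243, 0.530, and 0.612, and those of T58A S62A at 0.243, 0.500, and 0.822, so S62A lay below WT and T58A in every library and T58A S62A overlapped T58A. The log2 change was -1.91 ± 0.25 (SE; limma adjusted p = 5.96e-07). PAX8, a paired-box transcription factor gene that it overlaps, averaged under 1 FPKM and was not tested.

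NR2F1-AS1, which starts 86 bases from the orphan nuclear receptor gene NR2F1, was at 6.80, 7.46, and 8.30 FPKM in SH-EP and at 2.88 to 5.81 FPKM in the MYCN lines, a log2 change of -0.82 ± 0.11 (limma adjusted p = 8.15e-07). NR2F1 changed by -0.27 ± 0.07. BAIAP2-AS1 was at 5.57, 5.68, and 6.38 FPKM in SH-EP and at 2.54 to 4.16 FPKM in the MYCN lines (-0.92 ± 0.12, adjusted p = 4.73e-07), while the actin regulator gene BAIAP2 241 bases away was at 16.6 to 17.1 and at 13.0 to 20.7 FPKM (adjusted p = 0.525). MMP24-AS1, annotated as protein coding, was at 11.8 to 12.5 FPKM and at 3.84 to 11.1 FPKM (-0.82 ± 0.17).

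**Figure D1:**
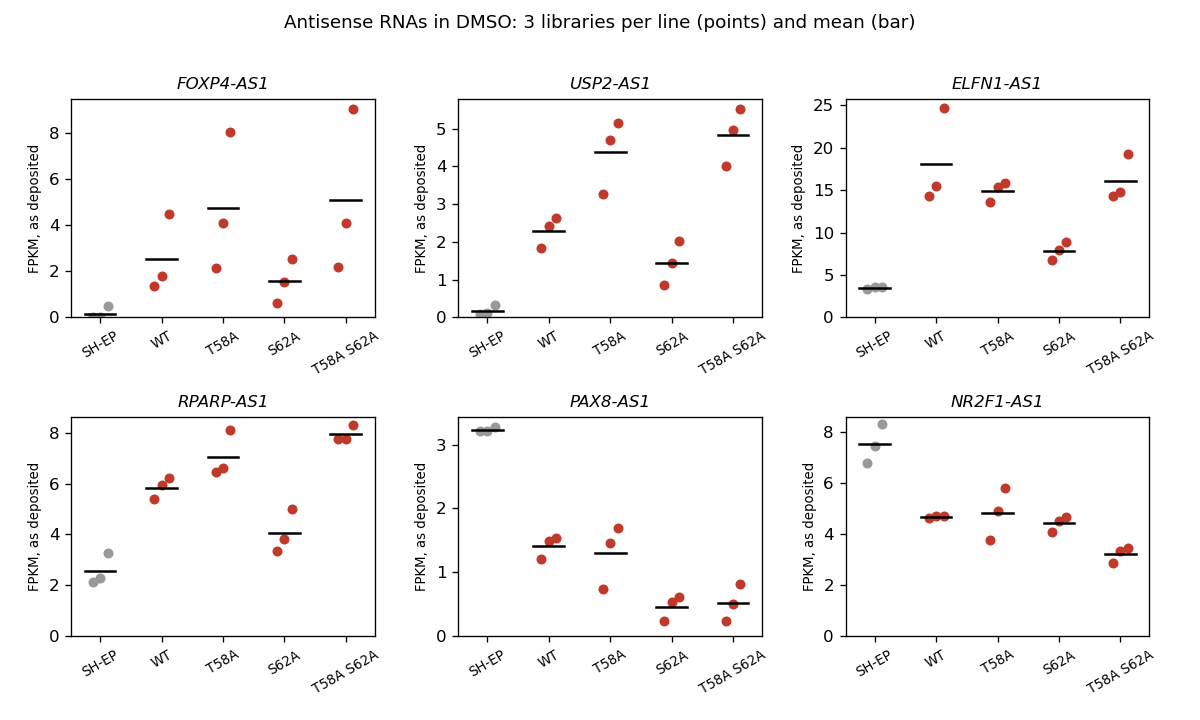
Deposited FPKM (vertical axis) of 6 antisense RNAs in DMSO for SH-EP (gray) and the 4 MYCN lines (red), with 3 libraries per line as points ordered by value and their mean as a bar. FOXP4-AS1, USP2-AS1, ELFN1-AS1, and RPARP-AS1 lie above SH-EP in every MYCN library, and PAX8-AS1 and NR2F1-AS1 lie below it in every one.

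The next question was whether the MYCN mutants differed from WT MYCN. In DMSO, T58A and S62A each had 21 of the 165 antisense RNAs called, and T58A S62A had 11, against 23.6%, 24.1%, and 23.7% of all tested genes. The 3 comparisons share the WT libraries. By direction, T58A had 8 higher and 13 lower (10.7% and 13.0% of all genes). S62A had 6 and 15 (10.1% and 14.0%), and T58A S62A 6 and 5 (9.43% and 14.2%). Calls are rarer at 1 to 5 FPKM, where 124 of the antisense RNAs and 3410 genes lay. There T58A had 6 antisense RNAs higher and 6 lower, against 293 and 137 genes. S62A had 5 and 4, against 248 and 215 genes, and T58A S62A 5 and 3, against 277 and 221. The directions turned with the scaling, since on spike-in scaled values T58A had 10 higher and 2 lower, S62A 0 and 75, and T58A S62A 29 and 1, with all-gene medians of 0.28, -0.71, and 0.39. Single libraries moved these counts: without WT DMSO library 2 they were 10, 12, and 6, without T58A DMSO library 1 T58A had 12, without S62A DMSO library 2 S62A had 13, and without T58A S62A DMSO library 3 the double mutant had 17.

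Among the antisense RNAs called in T58A, the largest changes were those of RUSC1-AS1 and HIF1A-AS2, which faces the hypoxia factor gene HIF1A. RUSC1-AS1 was at 0.139, 0.246, and 0.390 FPKM in WT and at 2.18, 2.34, and 3.02 FPKM in T58A, a log2 change of 2.91 ± 0.93 (SE; limma with Benjamini-Hochberg adjusted p = 0.0247). HIF1A-AS2 was at 0.147, 0.233, and 0.456 FPKM in WT and at 1.58, 1.91, and 3.36 FPKM in T58A (2.66 ± 0.93, adjusted p = 0.0404). Each call was lost on leaving out any of 5 of the WT and T58A libraries, with a pseudocount of 0.01 (adjusted p = 0.104 and 0.0977), and in a fit of only the groups compared, and that of HIF1A-AS2 also with no filter. Both RNAs were scattered in T58A S62A, RUSC1-AS1 at 0.415, 2.35, and 4.71 FPKM and HIF1A-AS2 at 0.0619, 1.84, and 4.63 FPKM. Over all libraries they averaged 1.21 and 1.02 FPKM, but each was under 1 FPKM in every DMSO-treated WT library. They thus reached the minimum through other groups, T58A among them, so that they differed follows in part from the choice of RNAs. EXOC3-AS1, which faces the exocyst subunit gene EXOC3, was at 2.81, 2.81, and 3.51 FPKM in WT and at 0.387, 0.882, and 1.80 FPKM in T58A, a change of -1.69 ± 0.33 (adjusted p = 0.000594).

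In S62A, ZFHX4-AS1 was at 0.142, 0.181, and 0.325 FPKM, below the WT values of 0.611, 0.857, and 0.990 FPKM (-1.56 ± 0.38, limma adjusted p = 0.00345), whereas in T58A it was at 2.23, 2.49, and 2.72 FPKM, above them (1.51 ± 0.38, adjusted p = 0.00467). No library of either mutant overlapped WT. Over all libraries ZFHX4-AS1 averaged 1.04 FPKM, but it was under 1 FPKM in every DMSO-treated WT and S62A library. It thus reached the minimum through other groups, T58A among them. That ZFHX4-AS1 was higher in T58A than in WT therefore follows in part from the choice of RNAs. HOXA-AS2, from the HOXA cluster, was at 0.679, 1.09, and 1.29 FPKM in WT and at 2.16, 2.99, and 5.50 FPKM in S62A (1.64 ± 0.56, adjusted p = 0.0353), a call lost on leaving out any of 5 of the WT and S62A libraries, with no filter (adjusted p = 0.0596), and with spike-in scaling (0.99, adjusted p = 0.104). Both mutants with S62A had less PAX8-AS1 than WT, by a log2 change of -1.49 ± 0.32 for S62A alone (adjusted p = 0.00145) and of -1.39 ± 0.32 for the double mutant (adjusted p = 0.00256).

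In T58A S62A, USP2-AS1 was above WT by 1.04 ± 0.35 on the log2 scale (limma adjusted p = 0.0312), a call lost on leaving out any of 4 libraries, 2 of WT and 2 of T58A S62A, with a pseudocount of 0.01 (adjusted p = 0.0624), and with no filter (adjusted p = 0.0507). BZRAP1-AS1 was at 3.70, 4.24, and 4.62 FPKM in T58A S62A, above its 1.83, 2.12, and 2.30 FPKM in WT (0.97 ± 0.20, adjusted p = 0.000636), and in S62A it was at 0.965, 1.23, and 1.91 FPKM (-0.62 ± 0.20, adjusted p = 0.0220).

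The main treatment question was how the antisense RNAs responded to CYC065. Values were scaled to the ERCC spike-ins that the authors had added by cell number, so a fall means less RNA per cell. With this scaling, 80 of the 165 were lower after CYC065 in all 5 lines and 1 was higher in all 5, where 69.4% and 0.501% of all tested genes were. In the mean over lines, 145 fell and 4 rose (94.4% and 1.59% of all genes), and 12 were called in no single line, as were 331 of the 11575 genes. The median log2 change was -1.17 for the antisense RNAs and -1.20 for all tested genes. At 1 to 5 FPKM, where 124 of the antisense RNAs lay, genes had a median of -1.61. There 49 of the 124 antisense RNAs and 2334 of 3410 genes were lower in all 5 lines. Of the 80, 60 had at least 1 FPKM in every group, and the 1 that rose did not. On FPKM as deposited the all-gene median was 0.10, and 57 antisense RNAs were higher and 50 lower in the mean, against 46.9% and 39.8% of all genes.

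Between lines, SH-EP had 117 antisense RNAs that fell (75.7% of all genes), WT 132 (93.7%), T58A 107 (84.2%), S62A 117 (90.2%), and T58A S62A 103 (76.3%). By size, the median change was -1.34 in SH-EP, where it was -1.06 for all tested genes, and -0.89 in T58A S62A, where it was -0.97 for all tested genes. For genes at 1 to 5 FPKM it was -1.55 in SH-EP and -1.43 in T58A S62A. The spike-in factors differed by line, from 3.05 to 3.28 in DMSO-treated SH-EP and from 0.722 to 0.938 in DMSO-treated S62A libraries, and their part in the differences between lines was not tested.

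**Figure D2:**
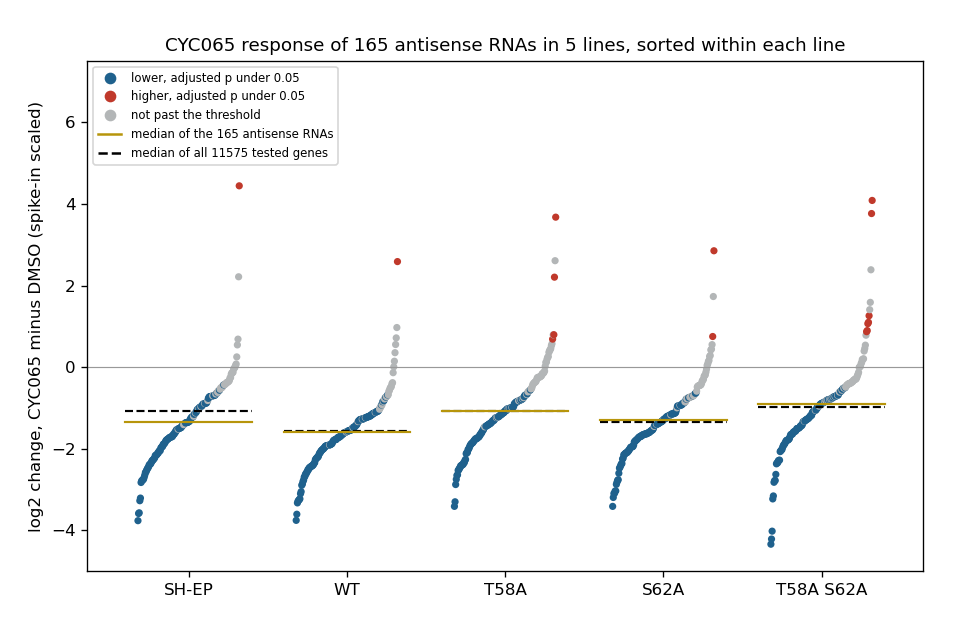
Log2 change after CYC065 (vertical axis, spike-in scaled) of the 165 antisense RNAs in each of the 5 lines, sorted by size within a line; blue points were lower and red points higher at an adjusted p under 0.05, and gray points did not pass. The median of the 165 (yellow line) and of all 11575 tested genes (dashed line) lie below 0 in every line, and the highest red point of each line is ADAMTSL4-AS1.

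The 8 RNAs that fell the most in all 5 lines were CKMT2-AS1, MCM3AP-AS1, MAFG-AS1, ATP6V0E2-AS1, ATP6V1B1-AS1, PITPNA-AS1, LHX4-AS1, and ST3GAL4-AS1, with mean log2 changes from -3.25 to -2.53. CKMT2-AS1, within whose span lies the mitochondrial creatine kinase gene CKMT2, was at 4.07, 4.72, and 5.19 spike-in scaled FPKM in DMSO-treated SH-EP and at 0.113, 0.352, and 0.541 after CYC065. In the MYCN lines it was at 1.90 to 6.45 in DMSO and at 0.0975 to 1.10 after CYC065. No treated library of any line reached an untreated one, and the mean change was -3.25 ± 0.19 (SE; limma adjusted p = 2.05e-15). CKMT2 was listed at 0 in every library.

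MCM3AP-AS1, which overlaps the gene of the mRNA export factor MCM3AP, was at 5.23, 5.27, and 6.57 scaled FPKM in SH-EP and at 0.268, 0.479, and 1.04 after CYC065, and its changes in the 5 lines lay between -3.30 and -3.09. Its mean change was -3.18 ± 0.18 (limma adjusted p = 2.32e-15), and MCM3AP fell by 1.53 on the log2 scale (SE 0.09). ATP6V1B1-AS1 (-2.96 ± 0.16) and LHX4-AS1 (-2.53 ± 0.12) face a proton pump subunit gene and a LIM homeobox gene that averaged under 1 FPKM. ST3GAL4-AS1, opposite a sialyltransferase gene, fell by 2.53 on the log2 scale with the largest error of the 8 (SE 0.27), and its CYC065 libraries in T58A were at 0.288, 4.15, and 5.32 scaled FPKM.

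The 10 most abundant antisense RNAs had mean changes between the -1.43 of HNRNPU-AS1 and the -0.61 of IQCH-AS1. In SH-EP, LRRC75A-AS1 was at 1126, 1188, and 1231 scaled FPKM in DMSO and at 769, 928, and 937 after CYC065, and its mean change over the lines was -0.82 ± 0.09 (limma adjusted p = 1.29e-09). FGD5-AS1 fell by 0.92 (SE 0.09) and OIP5-AS1 by 0.92 (SE 0.09), both in all 5 lines. NCBP2-AS2 fell by 0.66 on the log2 scale (SE 0.10) in the mean, without passing in T58A or T58A S62A. As deposited, these 4 had positive changes of 0.52, 0.42, 0.42, and 0.68.

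ADAMTSL4-AS1 was the RNA that rose in all 5 lines. It averaged under 1 FPKM in every DMSO group and reached the minimum only through the CYC065 libraries, so a difference was built into its choice and its values are a description. In SH-EP it was at 0, 0.311, and 0.599 scaled FPKM in DMSO and at 5.53, 5.85, and 8.74 after CYC065. In WT it went from 0.194, 0.471, and 1.61 to 3.28, 4.01, and 4.39, and in T58A from 0, 0.258, and 0.329 to 2.28, 3.50, and 3.64. In S62A it went from 0.186, 0.241, and 0.461 to 2.47, 2.56, and 2.93, and in T58A S62A from 0, 0, and 0.866 to 2.77, 3.58, and 4.39. Treated and untreated libraries of a line did not overlap, and the mean change was 3.53 ± 0.32 (SE) on the log2(FPKM + 0.1) scale, but with a pseudocount of 0.01 it did not pass in every line. It lies at chr1:150532678-150534591 on the minus strand, where 328 of its exon bases are also annotated to MCL1, the gene of the prosurvival protein MCL-1, at chr1:150533371-150552214 on the same strand. MCL1 averaged 110.3 FPKM and changed by -0.96 under CYC065, and how many of the ADAMTSL4-AS1 reads are MCL1 reads was not tested.

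RNF139-AS1 (1.24 ± 0.39), FRMD6-AS1 (0.41 ± 0.14), and ZNF674-AS1 (0.40 ± 0.11) were the others that rose in the mean (log2 change and SE, limma adjusted p of 0.00426, 0.00778, and 0.000830), and none of these rose in every line. RNF139-AS1 differed between lines. In SH-EP it was at 3.28, 3.31, and 4.54 scaled FPKM in DMSO and at 0.316, 0.447, and 3.16 after CYC065, while in T58A S62A it was at 0.101, 0.265, and 0.352 in DMSO and at 2.94, 3.59, and 7.33 after CYC065. In T58A it ran from 0.0319 to 3.56 in DMSO and from 2.08 to 3.67 after CYC065, so those libraries overlapped. RNF139, an E3 ubiquitin ligase gene 298 bases away, fell by 0.79 on the log2 scale (SE 0.08).

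The response to CYC065 differed between the MYCN lines and SH-EP for 7 antisense RNAs, all with a smaller fall or a rise in the MYCN lines and none the other way (limma, mean interaction, adjusted p under 0.05), against 4.17% and 1.93% of all genes. At an unadjusted p under 0.05, 17 lay above 0 and 7 below. The count of 7 was 4 without SH-EP DMSO library 1 or 3 or SH-EP CYC065 library 1, 3 without SH-EP CYC065 library 3, and 24 on FPKM as deposited. RNF139-AS1 had the largest interaction, 4.12 ± 0.98 (SE; limma adjusted p = 0.00942). NFYC-AS1, which faces a subunit gene of the CCAAT-binding factor NF-Y, fell in SH-EP from 1.40, 1.83, and 2.25 to 0.221, 0.481, and 0.747 scaled FPKM. In T58A it was at 1.01, 1.10, and 1.51 in DMSO and at 1.37, 1.68, and 1.81 after CYC065, and its interaction was 2.03 ± 0.37 (adjusted p = 0.000698). NFYC had an interaction of -0.53 ± 0.18 (adjusted p = 0.0931). ZNF790-AS1 followed with 1.43 ± 0.41 (adjusted p = 0.0365, but 0.0529 with no filter and 0.127 with spike-ins of at least 50 FPKM), falling by 2.16 in SH-EP (SE 0.37) and showing 0.36 ± 0.37 in T58A (adjusted p = 0.352).

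Antisense and sense RNA were then compared within each library, as the log2 ratio of their FPKM, which is nearly free of the scaling. Among 2052 pairs of tested genes on opposite strands, 124 were antisense RNAs with the sense gene of their name. Between the MYCN lines and SH-EP, the ratio was higher in 24 and lower in 20 of the 124, or 35.5%, against 54.2% of all pairs, and the 20 were 10 and 11 without SH-EP DMSO library 1 or 3. Of 38 pairs in which both genes were called, 28 moved the same way, 16 up and 12 down, and of 733 such pairs among all 2052, 440 did. Across pairs, Pearson's r between antisense and sense changes was 0.467 for the 94 pairs with adjacent starts and -0.0854 for the 24 with starts apart, a description of genes that share libraries and not a test.

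MYLK-AS1 had the largest gain, and its sense gene moved the other way. MYLK, the gene of myosin light chain kinase, was at 26.2, 26.5, and 28.1 FPKM in SH-EP and at 7.18 to 11.9 FPKM in the MYCN lines, while MYLK-AS1 was at 0.529, 0.811, and 1.28 FPKM in SH-EP and at 1.63 to 5.33 FPKM in the MYCN lines. The ratio rose by 3.07 ± 0.66 (SE; limma adjusted p = 0.000426). MYLK-AS1 averaged under 1 FPKM in DMSO-treated SH-EP and reached the minimum through other groups. That MYLK-AS1 was higher in the MYCN lines therefore follows in part from the choice of RNAs. The ratio of FOXP4-AS1 rose by 2.68 ± 0.54 (adjusted p = 0.000192), but with a pseudocount of 1 it was 0.75 and did not pass (adjusted p = 0.0674). That of RUSC1-AS1 rose by 1.84 ± 0.75, a call lost on leaving out any of 8 libraries, at 0.958 without SH-EP DMSO library 3, and also in a fit of only the groups compared (adjusted p = 0.0783) or of the named pairs alone (adjusted p = 0.073). That of PXN-AS1 rose by 1.51 ± 0.20. PXN-AS1, opposite the focal adhesion gene PXN, was at 2.78 to 3.31 FPKM in SH-EP and 2.69 to 3.42 in S62A but at 6.40 to 13.4 FPKM in the other MYCN lines, and PXN was lowest in T58A and T58A S62A.

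For VPS9D1-AS1 (1.37 ± 0.29) and FRMD6-AS1 (1.34 ± 0.21) the sense gene passed the test and the antisense RNA did not. FRMD6, a Hippo pathway gene, went from 142 to 156 FPKM in SH-EP down to 47.0 to 72.7 FPKM while FRMD6-AS1 was at 1.04 to 1.31 and at 0.498 to 2.02 FPKM. TTC28-AS1 (1.33 ± 0.21) and KTN1-AS1 (1.10 ± 0.25) completed the 8 largest gains among called pairs. The ratio fell by 1.67 for RNF139-AS1 (SE 0.67), 1.60 for NOP14-AS1 (SE 0.20), 1.31 for MAFG-AS1 (SE 0.31), 1.23 for SP2-AS1 (SE 0.33), 1.16 for MSC-AS1 (SE 0.27), and 1.15 for NR2F2-AS1 (SE 0.48), with PAXIP1-AS2 and BAIAP2-AS1 between and after them. Of these calls, that of NR2F2-AS1 was lost on leaving out any of 21 of the 30 libraries, with a pseudocount of 0.01 (adjusted p = 0.188), and in a fit of the named pairs alone (adjusted p = 0.077). That of RNF139-AS1 was lost on leaving out any of 9 libraries, with a pseudocount of 1 (-0.59, adjusted p = 0.123), and in fits of only the groups compared (adjusted p = 0.0578) or of the named pairs alone (adjusted p = 0.0639), and that of PAXIP1-AS2 without SH-EP DMSO library 1 or 3. NOP14, a ribosome biogenesis gene, was at 21.6, 21.7, and 21.8 FPKM in SH-EP and at 40.1 to 50.9 FPKM in the MYCN lines, while NOP14-AS1 was at 1.79, 2.05, and 2.11 and at 0.914 to 1.97 FPKM, with NOP14-AS1 overlapping in part between the groups (log2 change -0.58 ± 0.21, adjusted p = 0.0181).

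**Figure D3:**
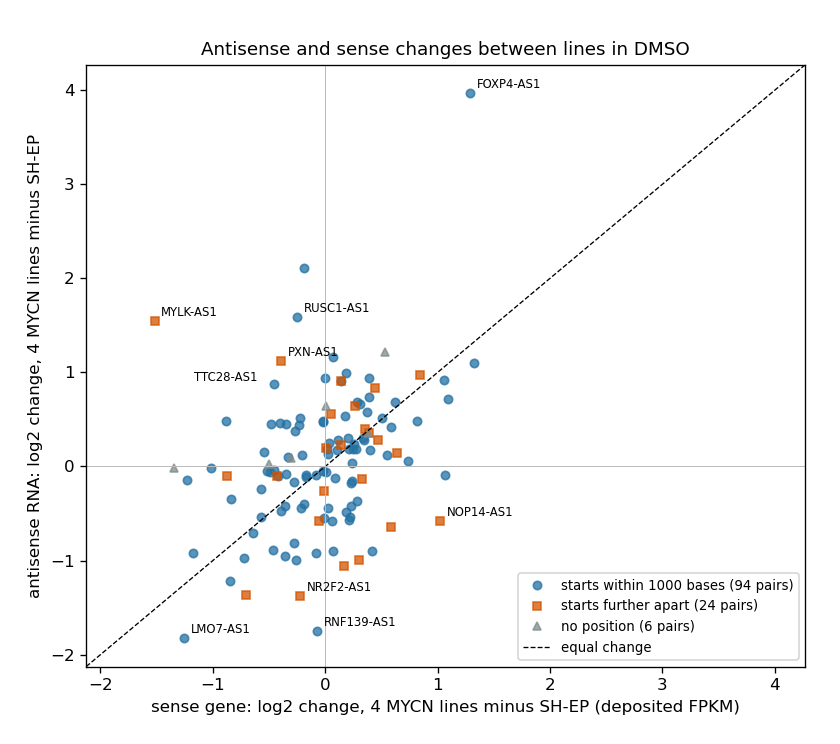
Mean log2 change in the 4 MYCN lines minus SH-EP (deposited FPKM) of each antisense RNA (vertical) against its sense gene (horizontal), for 124 pairs with starts within 1000 bases (circles), starts further apart (squares), or no position (triangles). FOXP4-AS1 lies above the dashed line of equal change with its sense gene also raised, and MYLK-AS1 and NOP14-AS1 lie where the 2 genes moved in opposite directions.

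Under CYC065, antisense RNA and sense gene fell together in almost all pairs but not by like amounts. All 123 tested sense genes fell in the mean over lines, and both genes of 110 of the 124 pairs were called lower, as were both of 1942 of all 2052 pairs. The ratio was higher in 48 and lower in 43 of the 124 pairs, or 73.4%, against 82.5% of all pairs, and r across pairs was -0.102, again as a description. In the 33 pairs whose sense gene fell by more than 2 on the log2 scale, at a median of -2.69, the antisense RNAs had a median of -1.16. In the 36 whose sense gene fell by less than 1, at a median of -0.65, it was -1.44.

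ZBED5-AS1 gained most on its sense gene. It was at 7.40, 8.37, and 9.40 scaled FPKM in DMSO-treated SH-EP and at 6.30, 6.45, and 7.24 after CYC065, while ZBED5 went from 49.2, 49.4, and 56.9 to 0.242, 0.457, and 0.701. In the MYCN lines ZBED5-AS1 was at 2.55 to 7.82 in DMSO and at 1.42 to 4.82 after CYC065, and ZBED5 at 10.9 to 36.5 and at 0.719 to 3.10. The sense gene was the higher of the pair in all DMSO groups and the antisense RNA in all CYC065 groups. The ratio rose by 3.85 ± 0.15 (SE; limma adjusted p = 4.56e-17), with changes of -0.69 and -4.55 for ZBED5-AS1 and ZBED5. As the sequence above shows, ZBED5 transcripts start as close as 106 bases from the ZBED5-AS1 start, on the other strand.

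TBX2-AS1, which starts 237 bases from the T-box gene TBX2, was at 48.6, 50.7, and 56.7 scaled FPKM in SH-EP and at 27.0, 32.8, and 35.4 after CYC065, while TBX2 went from 337, 345, and 359 to 35.1, 38.8, and 40.1. The ratio rose by 2.77 ± 0.08 (limma adjusted p = 1.73e-19), between 2.47 and 3.01 in the 5 lines. HAND2-AS1, beside HAND2, which encodes a basic helix-loop-helix factor of sympathetic neurons, went from 40.0, 40.4, and 44.6 to 24.5, 29.5, and 30.8 and HAND2 from 251, 256, and 274 to 33.8, 39.4, and 44.7, a ratio change of 1.98 ± 0.06. MSC-AS1, beside the musculin gene MSC, fell by 1.23 where MSC fell by 3.33 (ratio 2.10 ± 0.15).

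TRAF3IP2-AS1 (2.83 ± 0.17), ZMIZ1-AS1 (2.29 ± 0.13), ZSCAN16-AS1 (2.24 ± 0.26), ZNF561-AS1 (2.10 ± 0.17), and HLX-AS1 (2.07 ± 0.40) completed the 8 largest gains of the ratio. Their sense genes encode a signaling adaptor, a transcriptional coregulator, 2 zinc finger proteins, and a homeobox protein, with log2 changes of -3.47, -3.58, -2.73, -2.87, and -3.08. Of 15 antisense RNAs named after genes with zinc finger symbols (starting with ZNF, ZSCAN, ZBTB, ZBED, or ZFHX), 13 had a tested sense gene. The ratio was higher in 7 and lower in 4 of these, against 830 and 862 of all 2052 pairs.

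MAFG-AS1 lost most against its sense gene. In SH-EP it was at 16.8, 20.9, and 21.1 scaled FPKM in DMSO and at 0.649, 1.79, and 2.03 after CYC065, whereas MAFG, a small Maf transcription factor gene 94 bases away, was at 77.3, 79.3, and 85.9 and at 70.7, 83.0, and 84.6. The ratio fell by 2.94 on the log2 scale (SE 0.18, limma adjusted p = 1.68e-13) and in each of the 5 lines by 2.42 to 3.70. MAFG changed by -0.03 ± 0.19 in SH-EP and 0.04 ± 0.19 in T58A S62A, neither past the threshold (adjusted p = 0.896 and 0.858), and by -0.92 ± 0.19 in WT. ATP6V0E2-AS1 was alike, at 7.20, 8.10, and 8.95 and then 0.400, 0.494, and 0.996 in SH-EP, with the proton pump subunit gene ATP6V0E2 at 69.3, 70.9, and 79.2 and then 52.0, 67.5, and 71.1, and its ratio fell by 2.78 (SE 0.13).

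The ratio also fell by 1.98 for BOLA3-AS1 (SE 0.14), 1.90 for MCM3AP-AS1 (SE 0.18), 1.86 for NNT-AS1 (SE 0.09), 1.76 for PITPNA-AS1 (SE 0.12), 1.74 for DHRS4-AS1 (SE 0.11), and 1.61 for HIF1A-AS2 (SE 0.42). BOLA3, NNT, and DHRS4 encode mitochondrial or metabolic proteins, and PITPNA a phosphatidylinositol transfer protein. PITPNA-AS1 and PITPNA overlapped in level in DMSO-treated SH-EP, at 48.6, 56.1, and 71.0 against 52.9, 54.1, and 55.3 scaled FPKM, and after CYC065 it was at 8.13, 8.18, and 8.64 against 28.3, 36.8, and 38.1.

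**Figure D4:**
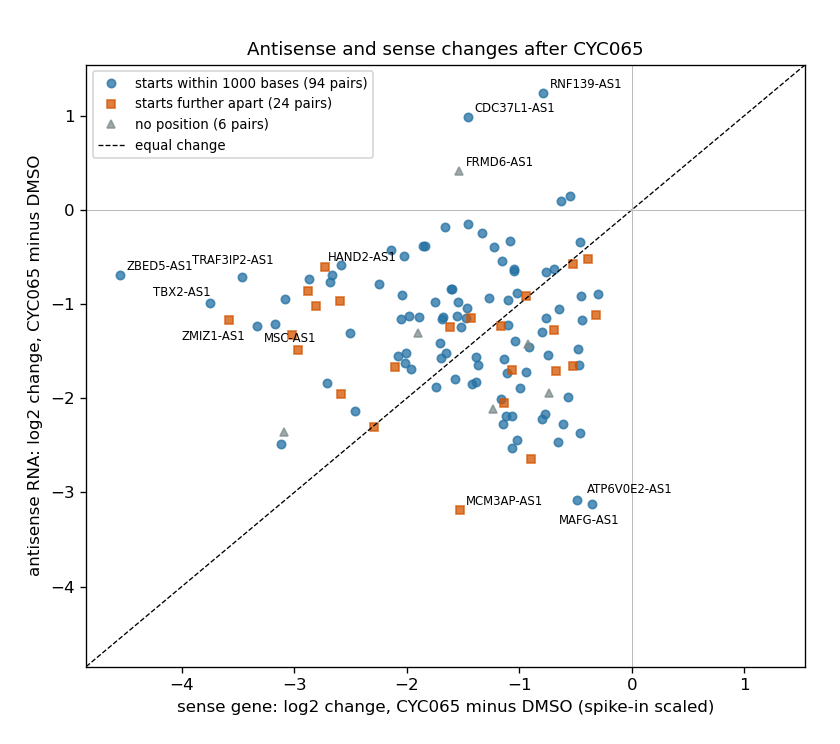
Mean log2 change after CYC065 over the 5 lines (spike-in scaled) of each antisense RNA (vertical) against its sense gene (horizontal) for the same 124 pairs and symbols. All sense genes lie left of 0, ZBED5-AS1 and TBX2-AS1 lie far above the dashed line of equal change, and MAFG-AS1 and ATP6V0E2-AS1 lie far below it.

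**Figure D5:**
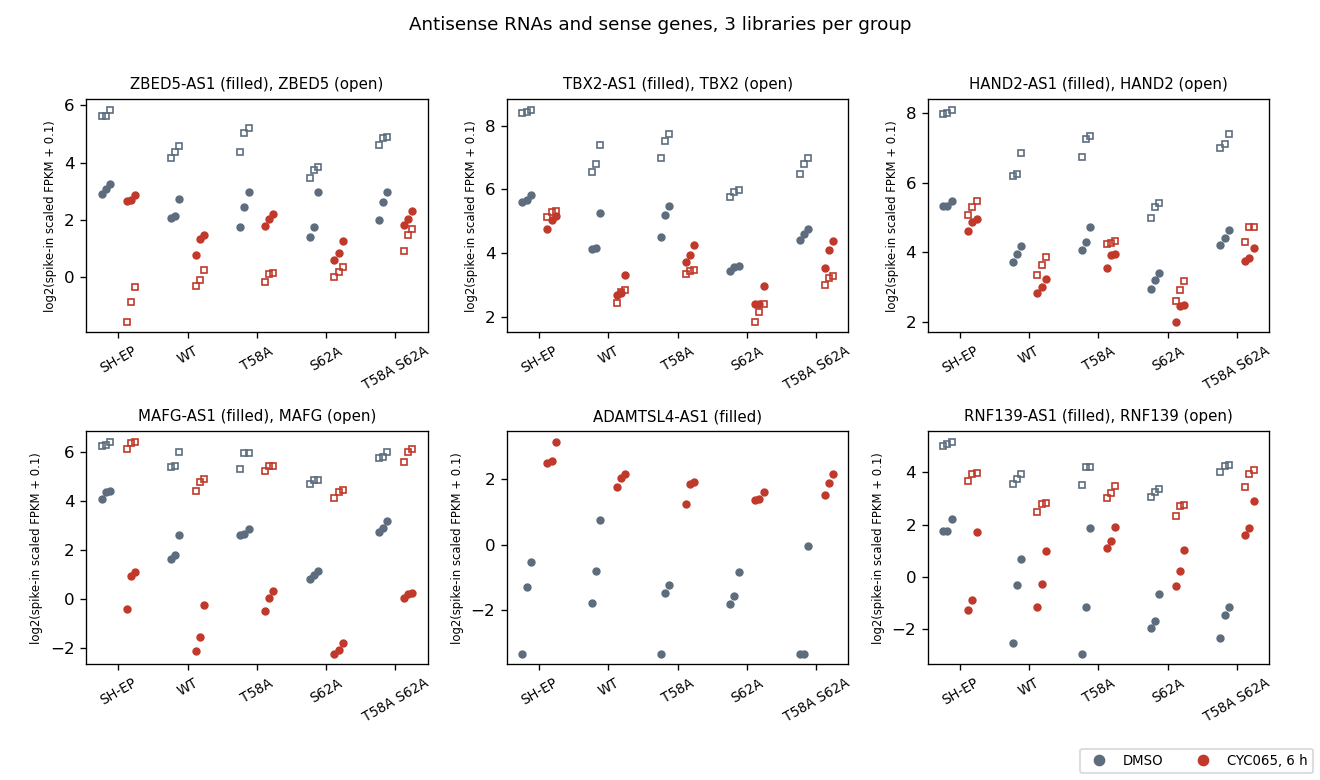
Log2(spike-in scaled FPKM + 0.1) of antisense RNAs (filled circles) and sense genes (open squares) in each of the 3 libraries per group, ordered by value, in DMSO (gray) and after CYC065 (red). ZBED5 falls below ZBED5-AS1 in the CYC065 libraries, MAFG-AS1 falls further than MAFG in every line, and ADAMTSL4-AS1, shown without its sense gene, rises in every line.

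Of a list of antisense RNAs with described functions, 16 were tested. In the mean of the MYCN lines 6 were higher and 2 lower than in SH-EP, where 34.6% and 26.3% of all genes were. In every line 3 were higher, among them EPB41L4A-AS1 and MAPKAPK5-AS1, and PAX8-AS1 was lower, although with spike-in scaling the changes of EPB41L4A-AS1 and MAPKAPK5-AS1 were negative. DLX6-AS1, from the DLX5 and DLX6 homeobox locus, was at 0.856 to 1.00 FPKM in SH-EP and at 2.40 to 3.28 FPKM in S62A (0.97 ± 0.29 in the mean of the 4 lines), and GATA3-AS1, LOXL1-AS1, and SBF2-AS1 did not pass. DLX6-AS1 averaged under 1 FPKM in DMSO-treated SH-EP and reached the minimum through other groups, so its difference follows in part from the choice of RNAs. After CYC065 all 16 were lower in the mean and 12 in every line (94.4% and 69.4% of all genes), between the -0.69 of HAND2-AS1 and the -3.18 of MCM3AP-AS1.

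Genes of the nuclear exosome, of the Integrator complex, and of early termination were also measured, as mRNAs. Of 21 tested genes of the nuclear exosome and its adaptors, which degrade unstable nuclear RNA, 10 were higher than in SH-EP in every MYCN line and none was lower in every line, with a median change of 0.38, against 0.06 for all tested genes, and of -0.87 with spike-in scaling, against -1.17 for all. Of 29 genes of the Integrator complex and of early termination, 10 were higher in every line and none lower. Their median was 0.21, or -1.04 with spike-in scaling. Of all tested genes, 19.2% were higher and 13.4% lower in every MYCN line. After CYC065, all 21 and all 29 fell in the mean over lines, where 94.4% of all tested genes did. The medians were -1.55 and -1.42, against -1.20 for all tested genes. Whether these genes had a part in the antisense values was not tested.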

How the data were processed

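RNA-Seq of poly(A) RNA with ERCC spike-ins added by cell number was analysed in 30 libraries, 3 for each of 5 lines in DMSO and in CYC065. The authors aligned reads to hg19 with HISAT and made the deposited FPKM with Cufflinks, and columns of the table name a group but not which labelled replicate. The annotation used for counting is not given in the sources used here, and read totals are unknown. For comparisons between lines FPKM were used as deposited, and for CYC065 they were multiplied by 1 factor per library that set the median log2 level of 55 spike-ins (mean at least 1 FPKM) equal. The 11575 genes that averaged 1 FPKM or more entered 1 limma fit (version 3.58.1, R 4.3.3, eBayes with trend) of log2(FPKM + 0.1) over 10 groups, with Benjamini-Hochberg adjustment over all tested genes and a threshold of 0.05. The filter was on the mean of all libraries, so fits of low genes rest on the pseudocount. Log2 ratios of 2052 opposite-strand pairs were fitted likewise. Positions and sequences are from GRCh37, with RefSeq synonyms for renamed genes. The fit was tested on simulated data. The RNAs and gene lists were chosen with earlier results of these data known.

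Named were the 10 most abundant RNAs, the 8 that rose and the 8 that fell most among those called in every line, the 8 largest called ratio changes in each direction, the 3 on either side of the minimum, the 3 largest called interactions, the 3 largest called changes of each mutant, and a list of known antisense RNAs, each with its sense gene. RNAs named to complete a count, and those shown as a second example beside a named one, were chosen after their values were seen. Some of the genes that these rules name are not reported here. Alternatives changed the pseudocount, filter, scaling, trend, fold threshold, spike-ins, or groups fitted, or left out each library.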

Additional observations from a re-analysis of the deposited data

Results flagged for a closer look

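The response to CYC065 differed between the MYCN lines and SH-EP, by the interaction term of the limma fit, for 7 antisense RNAs, or 4.24%, against 4.17% of all tested genes, so the share was that of the background (log2 difference of the changes, SE, and Benjamini-Hochberg adjusted p). RNF139-AS1 had a difference of 4.12 ± 0.98 (adjusted p = 0.00942), with changes of -2.06 in SH-EP, 3.77 in T58A S62A, 2.21 in T58A, 1.73 in S62A, and 0.56 in WT, and the call was lost on leaving out either of 2 SH-EP libraries treated with CYC065. NFYC-AS1 had a difference of 2.03 ± 0.37 (adjusted p = 0.000698) and passed in each of the 4 MYCN lines against SH-EP. ZNF790-AS1 followed with 1.43 ± 0.41 (adjusted p = 0.0365), a call lost on leaving out any of 9 libraries, with no filter, and with spike-ins of at least 50 FPKM. ZNF674-AS1 had 1.40 ± 0.26 (adjusted p = 0.000985), with scaled FPKM of 4.53, 6.06, and 6.52 in SH-EP falling to 2.50, 3.33, and 4.63, while T58A S62A went from 3.24, 3.54, and 4.92 to 7.85, 8.36, and 12.4. CAPN10-AS1 had 1.35 ± 0.39 (adjusted p = 0.0349), NIPBL-AS1 1.28 ± 0.24 (adjusted p = 0.000905), and PAXIP1-AS1 1.26 ± 0.34 (adjusted p = 0.0229), and these fell in SH-EP by 1.33, 2.16, and 1.59 on the log2 scale.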

How the results depend on the processing

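No paired analysis was possible because the number in each column name of the table matches no single replicate of the labels. Library numbers given here are therefore not replicate numbers of the labels. Depth is known only in relative terms, and for RNAs near 1 FPKM it limits every call. Left-out libraries gave 11 to 15 RNAs higher and 3 to 6 lower in every MYCN line, 1 higher and 72 to 83 lower after CYC065 in every line, 3 to 9 interactions above 0 and 0 to 1 below, 10 to 22 calls in T58A, 12 to 22 in S62A, and 6 to 17 in T58A S62A, and ratios higher in 17 to 26 and lower in 10 to 20 pairs between lines and higher in 45 to 50 and lower in 40 to 44 pairs after CYC065. Interactions above 0 numbered 4 without SH-EP DMSO library 1 or 3 or SH-EP CYC065 library 1, and 3 without SH-EP CYC065 library 3. The 1 below 0 appeared without S62A DMSO library 3, T58A DMSO library 1, T58A CYC065 library 3, or T58A S62A CYC065 library 2. Calls in T58A numbered 10 without WT DMSO library 2 and 12 without T58A DMSO library 1, those in S62A 12 without WT DMSO library 2 and 13 without S62A DMSO library 2, and those in T58A S62A 6 without WT DMSO library 2 and 17 without its own DMSO library 3. Lower ratios between lines numbered 10 and 11 without SH-EP DMSO library 1 or 3.

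With a filter at 5 FPKM, which tests fewer genes, the counts were 8 higher in every MYCN line, 0 higher and 31 lower after CYC065, 2 interactions above 0, 9, 13, and 5 mutant calls, and ratios higher and lower in 6 and 4 pairs between lines and in 10 and 8 after CYC065. With the other scaling (spike-in for lines, deposited for CYC065) they were 2 higher and 60 lower in every MYCN line, 13 higher and 19 lower after CYC065, 24 interactions above and 2 below 0, and 12, 75, and 30 mutant calls. Centering on the median gave 19 higher and 10 lower after CYC065, with 24 and 2 interactions. A pseudocount of 1 gave 7 lower in every MYCN line and 21 and 1 interactions, and one of 0.01 gave 0 higher after CYC065. Fits of only the groups compared gave 7 lower in every MYCN line and 11 calls in T58A, no filter gave 13 in T58A and 6 in T58A S62A, a 1.5-fold minimum gave 7 higher in every MYCN line and 7 in T58A S62A, and spike-ins of at least 50 FPKM gave 4 interactions. Where no construction shows it, the cause was not tested.

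Of 109 single values, left-out libraries kept the call in 3189 of 3270 cases, with none reversed. Many of those cases left out a library outside the comparison, such as a CYC065 library for lines in DMSO. They change little but the shared estimate of the spread, so the share kept does not measure how stable a call is. Other settings kept the call in 640 of 720 cases, with 27 lost, 6 gained, and 47 reversed. All 47 came from scaling. With spike-in scaling the change in the MYCN lines turned to -0.20 for DLX6-AS1, -0.66 for EPB41L4A-AS1, -0.88 for HNRNPU-AS1, -0.88 for IQCH-AS1, -0.91 for LRRC75A-AS1, -0.54 for MAPKAPK5-AS1, -0.98 for MCM3AP-AS1, -0.73 for NCBP2-AS2, -1.10 for OIP5-AS1, -0.84 for PSMA3-AS1, -0.14 for SLFNL1-AS1, -0.26 for TMEM147-AS1, -0.99 for TMPO-AS1, -0.36 for TTC28-AS1, and -0.52 for ZNF667-AS1. After CYC065, deposited and then median-centered values turned to 0.0218 and 0.19 for EPB41L4A-AS1, 0.42 and 0.59 for FGD5-AS1, 0.15 and 0.31 for GATA3-AS1, 0.64 and 0.81 for HAND2-AS1, 0.71 and 0.88 for IQCH-AS1, 0.52 and 0.69 for LRRC75A-AS1, 0.19 and 0.36 for MAPKAPK5-AS1, 0.68 and 0.84 for NCBP2-AS2, 1.07 and 1.24 for NFYC-AS1, 0.42 and 0.58 for OIP5-AS1, 0.57 and 0.73 for SERTAD4-AS1, 0.35 and 0.51 for TBX2-AS1, 0.43 and 0.60 for ZNF667-AS1, and 0.28 and 0.45 for ZNF790-AS1. Centering alone turned DLX6-AS1 (0.0825), HNRNPU-AS1 (0.0690), HOXA-AS2 (0.0886), and PAX8-AS1 (0.0903).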

Other observations

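Long intergenic noncoding RNAs, taken by their LINC symbols, had 20 of 75 higher and 15 lower in the mean of the MYCN lines, where 34.6% and 26.3% of all tested genes were, and 5 higher and 59 lower after CYC065 with spike-in scaling, where 1.59% and 94.4% were (limma, adjusted p under 0.05). Their median changes were -0.02 and -1.10, beside 0.13 and -1.17 for the antisense RNAs, and no difference between the classes was tested. Of the antisense RNAs, 2 were called in opposite directions in different MYCN lines, against 389 of 11575 tested genes.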
